A study of Mus musculus with 48 samples.

Results

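A group of 10 panel genes, Defb1, Pigr, Ceacam1, Muc1, Mme, Gata3, Clu, C4bp, H2-Q10 and Ptgs2, reached extreme counts in single fat pads of mice on 6 diets. They were 10 of the 547 endogenous genes measured, and they were chosen because of those extreme counts, so their high values below are a description and carry no test. The RNA came from epididymal white adipose tissue of 48 mice of the inbred strain C3H/HeOuJ after 6 months of free feeding. A total of 8 mice ate chow. The other mice ate 1 of 5 fat-rich diets, each giving 42% of calories as carbohydrate and 42% as fat: sucrose/palmitate (8 mice), starch/palmitate (7), sucrose/oleate (9) and starch/oleate (9), which were custom diets, and a commercial Western diet (7). All groups shared that strain, age is not given in the sources used here, and each library is named here by its diet and replicate number. No label said whether libraries were other than separate animals, so the p-values further on measure the spread between these samples.

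The genes belong to several kinds of cell. Defb1 encodes a beta-defensin, an antimicrobial peptide secreted by epithelia. Pigr encodes the receptor that carries polymeric immunoglobulin across an epithelial cell, Ceacam1 an adhesion glycoprotein of epithelia, endothelium and leukocytes, and Muc1 a membrane mucin of the apical surface. Mme encodes neprilysin, a membrane peptidase, and Gata3 a transcription factor of type 2 lymphocytes and of several epithelia. Clu encodes clusterin, a secreted chaperone abundant in the male reproductive tract, C4bp a plasma inhibitor of complement made mainly by liver, H2-Q10 a secreted class I molecule made mainly by liver, and Ptgs2 the inducible cyclooxygenase that starts prostaglandin synthesis. The epididymal fat pad lies against the epididymis and the spermatic ducts, which are lined by epithelium. Epithelial therefore describes Defb1, Pigr, Muc1 and, in part, Ceacam1 and Gata3, and does not describe C4bp or H2-Q10. The core epithelial markers Epcam, Cdh1 and the keratins were not analysed here, so the label epithelial could not be checked against them.

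Total gene counts ran from 396391 to 888687 per library, with a median of 635028. Counts were divided by a factor from the geometric mean of 14 reference genes, and the results are called scaled counts. The 8 negative control probes averaged 7.51 counts, with a maximum of 21 over 384 values. The 3 adipocyte genes on the panel, Cfd, Pparg and Cd36, summed to between 23954 and 303890 scaled counts, so adipocyte RNA was present in every library. The median scaled counts of the members over 48 libraries were 1904 for Clu, 1103 for Mme, 216 for H2-Q10, 162 for Ceacam1, 47.02 for Gata3 and 42.5 for Ptgs2. They were 18.1 for Pigr, 15.5 for Defb1, 14.97 for C4bp and 9.92 for Muc1, within the range of the negative controls, so the usual level of these 4 genes was not clearly above background. Medians of different genes also depend on the probes and are not compared with one another. Probe sequences were not used here, so reads shared by H2-Q10 with other class I genes, by Ceacam1 with its paralogs or by C4bp with related genes could not be assessed.

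A member was called high in a library when its scaled count was at least 4 times its median over the 48 libraries and at least 30. Of 480 pairs of member and library, 61 were high. By the same rule, over all 491 tested genes, a library had a median of 2 genes high and at most 18. The members were chosen for high values, so their larger share is a description. They lay in 22 libraries, and 26 libraries had no member high. In 12 libraries at least 3 members were high together. Defb1 was high in 12 libraries, Gata3 in 12, C4bp in 10, Ptgs2 in 9, Pigr in 8, Ceacam1 in 5, Clu in 2, and Muc1, Mme and H2-Q10 in 1 each. The values next to the threshold showed where it separated libraries cleanly and where it did not. For Ceacam1 the lowest high library had 9.18 times the median and the highest of the others 1.99 times. For Mme these ratios were 16.3 and 3.91 and for H2-Q10 40.2 and 3.53. The lowest high library lay close to the threshold for Defb1 (4.02, next 2.47), Gata3 (4.18, next 3.72), Pigr (4.25, next 3.01), Clu (4.37, next 2.51) and C4bp (4.45, next 3.16), so the last calls of these genes depended on where the threshold lay.

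**Figure D1:**
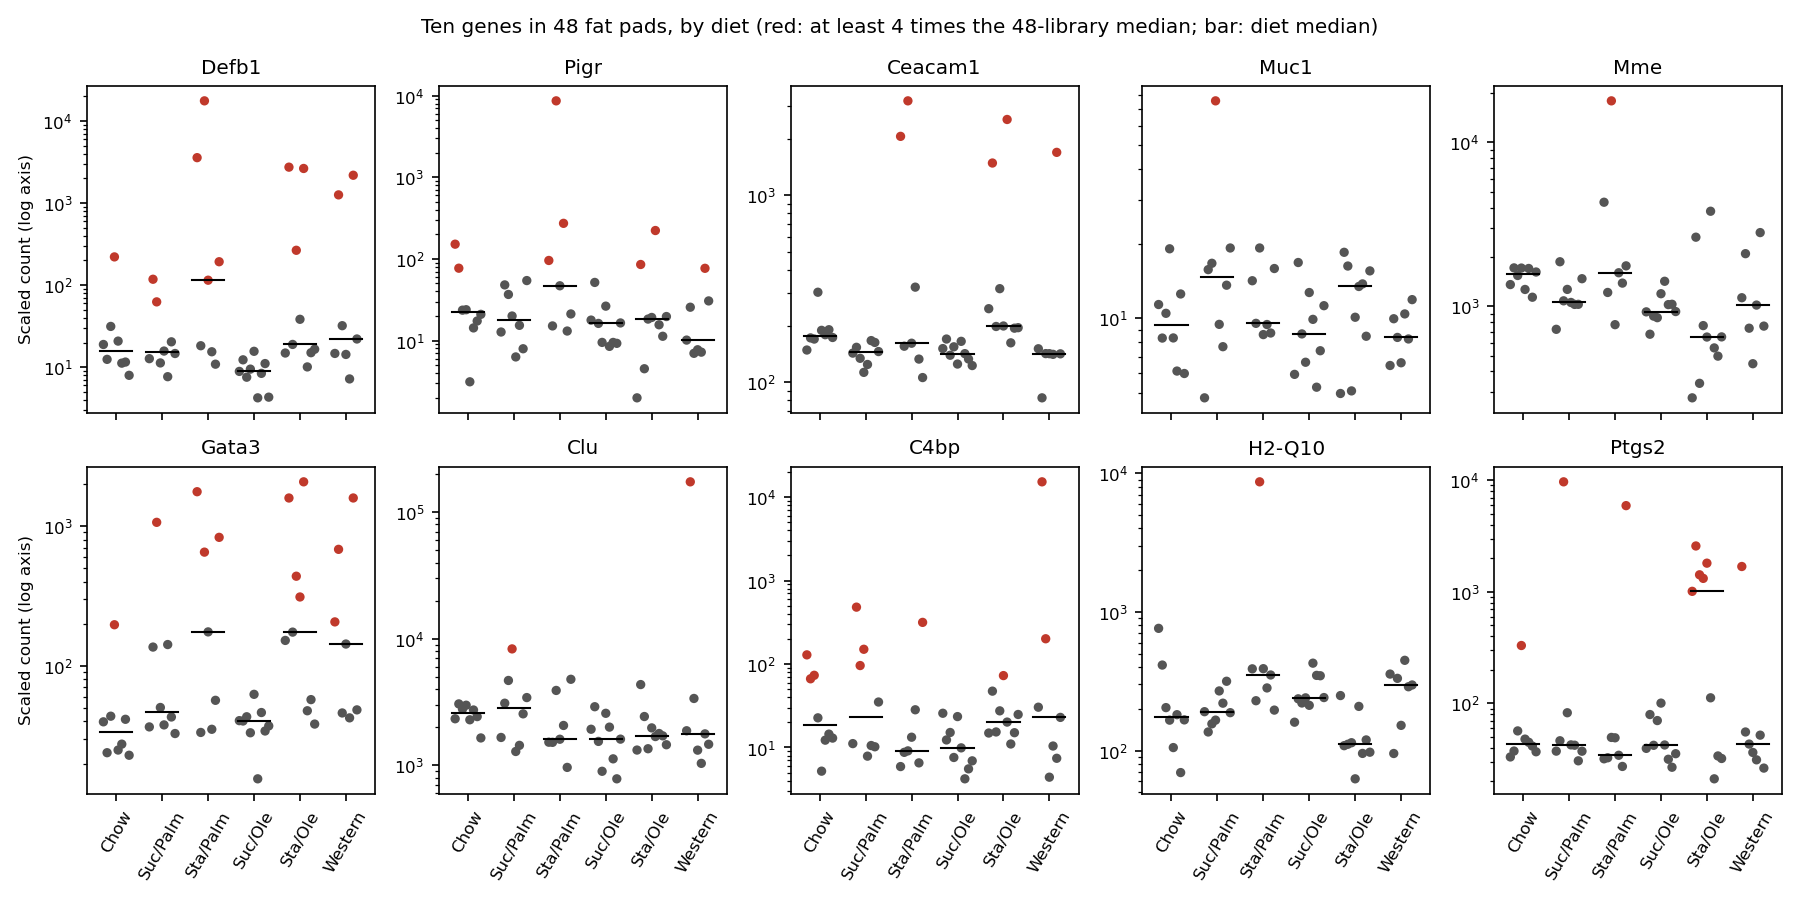
Scaled counts of the 10 genes in 48 fat pads, by diet, on log axes; each point is a library, red points are at least 4 times the 48-library median and at least 30, and bars are diet medians. The red points of Defb1 include 4 of the 7 starch/palmitate libraries, those of Gata3 and Ptgs2 include 4 and 5 of the 9 starch/oleate libraries, and the sucrose/oleate group has none.

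The high libraries were spread over 5 of the 6 groups. At least 3 members were high in 1 of 8 chow libraries, 2 of 8 sucrose/palmitate, 3 of 7 starch/palmitate, 4 of 9 starch/oleate and 2 of 7 Western diet libraries. In the sucrose/oleate group all 9 libraries had no member high. Of all 491 tested genes, 12 were high in replicate 2 of this group and 0 or 1 in each of its other libraries. On this diet Defb1 ran from 4.24 to 15.6, with a median of 8.90, and Gata3 from 15.5 to 62.5, with a median of 40.3. Other groups also held libraries with no member high, 4 of 8 on chow, 5 of 8 on sucrose/palmitate, 2 of 7 on starch/palmitate, 3 of 9 on starch/oleate and 3 of 7 on the Western diet. Since the genes were chosen for these values, the diets' shares were not tested against each other.

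In 8 libraries a member exceeded 50 times its median. They were sucrose/palmitate replicate 3, starch/palmitate replicates 1, 3 and 7, starch/oleate replicates 2 and 6, and Western diet replicates 2 and 6. The largest ratio of any member in these libraries was at least 139, against at most 42.5 in the other libraries. The 8 libraries differed in which members were high, and they are described by the genes that were high together. These sets were formed after the values were seen.

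**Figure D2:**
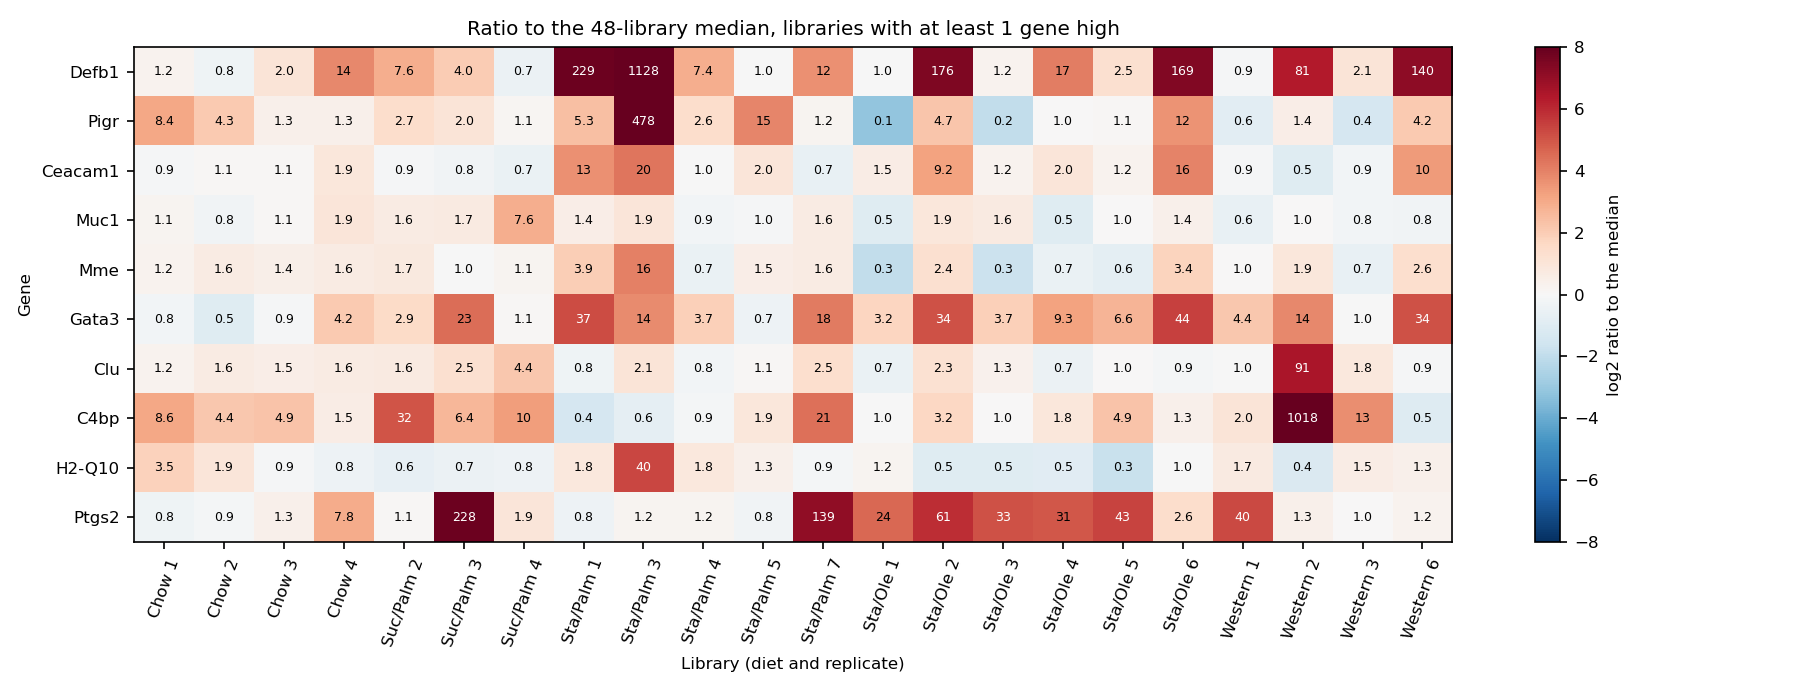
Ratio of each gene to its 48-library median in the 22 libraries with at least 1 gene high; colours are log2 ratios that saturate at 8, and the printed numbers are linear ratios. Defb1, Ceacam1 and Gata3 are high together in 5 libraries, Gata3 and Ptgs2 in 7, and Clu and C4bp in 2.

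The first set held starch/palmitate replicate 1, starch/oleate replicates 2 and 6 and Western diet replicate 6, and its mark was Defb1, Ceacam1, Gata3 and Pigr together. Defb1, the defensin, had scaled counts of 3564 in starch/palmitate replicate 1, 2731 and 2632 in starch/oleate replicates 2 and 6, and 2177 in Western diet replicate 6. These were 140 to 229 times its median, and 1 library elsewhere was as high. Ceacam1 had 2066, 1487, 2543 and 1696 in the same order of libraries, again with 1 library elsewhere as high. Gata3 had 1759.7, 1587, 2071 and 1587, and the highest Gata3 value outside the set was 1063. The 4 libraries therefore had the 4 highest Gata3 values of all 48 although they came from 3 diets.

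Pigr, the immunoglobulin carrier, was high in the same 4 libraries at lower counts, 95.7, 85.4, 223 and 76.7. Mme was raised in them without reaching the threshold, with 4315, 2640, 3802 and 2816.5, or 2.39 to 3.91 times its median. Clu, C4bp, H2-Q10 and Muc1 were high in none of the 4. Ptgs2 was high in starch/oleate replicate 2, at 2575, and was 31.9 to 112 in the other 3 libraries. Prostaglandin synthase and defensin thus did not go together within this set.

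Promoters are shown for Ceacam1, Gata3 and Pigr, which were high together in this set. The 250 bases before each RefSeq start site (build GRCm38.p6) are written 5′ to 3′ on the strand of the gene, and capitals mark the letters AGAACA or their reverse complement, a half-site of androgen and glucocorticoid receptors. The windows are chr7:25477626-25477875 (minus strand) for Ceacam1, chr1:130826434-130826683 (plus strand) for Pigr and chr2:9878601-9878850 (minus strand) for Gata3.
Ceacam1: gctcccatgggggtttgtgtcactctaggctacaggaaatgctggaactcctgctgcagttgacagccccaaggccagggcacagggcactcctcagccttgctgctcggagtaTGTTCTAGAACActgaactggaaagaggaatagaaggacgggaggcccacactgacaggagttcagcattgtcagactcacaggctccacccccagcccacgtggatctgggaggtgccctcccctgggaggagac
Pigr: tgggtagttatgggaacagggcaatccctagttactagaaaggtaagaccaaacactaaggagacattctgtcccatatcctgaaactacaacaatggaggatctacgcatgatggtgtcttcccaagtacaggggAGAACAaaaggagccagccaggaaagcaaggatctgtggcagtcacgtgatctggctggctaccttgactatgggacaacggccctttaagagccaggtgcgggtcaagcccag
Gata3: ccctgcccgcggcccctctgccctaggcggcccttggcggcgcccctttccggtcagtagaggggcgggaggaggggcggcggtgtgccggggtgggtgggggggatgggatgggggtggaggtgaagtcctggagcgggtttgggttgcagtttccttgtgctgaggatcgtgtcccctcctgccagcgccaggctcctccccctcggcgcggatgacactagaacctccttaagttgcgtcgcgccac
Ceacam1 held 2 matches, 136 and 130 bases before the start, which lie end to end on opposite strands. Pigr held 1 match, 114 bases before the start, and Gata3 none. Over all 32851 promoter windows of 300 bases in the table (250 before the start and 50 after), 19% held at least 1 match on either strand. A search on both strands for the TATA box letters TATAAA found none in these 3 windows and a match in 13.6% of all windows. The GATA letters GATAAG also had no match in the 3, against 7.44% of all windows. The same held for the letters TGANTCA of factor AP-1, found in 7.81%. The table held promoters for 8 of the 10 members. A match describes letters in a window and says nothing about binding in these fat pads.

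Other panel genes went with the first set. Cd24a, a small surface glycoprotein of many epithelia and of B cells, had 5446 to 8538 scaled counts in the 4 libraries, 11.3 to 17.8 times its median, and at most 3274 elsewhere. It was not particular to this set. Its ratio was 4.94 in sucrose/palmitate replicate 3, 4.04 in starch/palmitate replicate 7 and 6.82 in Western diet replicate 2. C1s, a protease of the classical complement pathway, had 18814 to 27281 against at most 12612 elsewhere. Stat5a, which relays cytokine and prolactin signals, had 738 to 966 against at most 576 elsewhere. Il1r2, the decoy receptor for interleukin 1, had 115 to 167, and 1 library elsewhere was as high. Cd24a, C1s, Stat5a and Il1r2 were the 4 tested non-member genes at or above 2 times their median in all 4 libraries.

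Starch/palmitate replicate 3 shared Defb1, Ceacam1, Gata3 and Pigr with the first set but at other proportions. Defb1 reached 17525 scaled counts, 1128 times its median, and Pigr 8629, 478 times its median. Mme reached 17940, 16.3 times its median, and H2-Q10 reached 8669, 40.2 times its median. All 4 were the highest of 48 libraries, and Mme and H2-Q10 were high in no other library. Ceacam1 was also at its highest there, 3199, whereas Gata3 at 650.4 was below every library of the first set. Defb1 made up 2.52% of the endogenous counts of the library (95% Wilson interval 2.49% to 2.56%, counting error only), Mme 2.58% (2.55% to 2.62%), Pigr 1.24% (1.22% to 1.27%) and H2-Q10 1.25% (1.22% to 1.28%). Elsewhere H2-Q10 ran from 62.6 to 761, with the second highest value in chow replicate 1.

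The other panel genes of this library overlapped only in part with those of the first set. It had 54 tested non-member genes at or above 2 times their median. It shared 3 to 5 of them with each library of the first set, which had 6 to 20 such genes. Il17re, a subunit of the epithelial receptor for interleukin 17C, had 207 scaled counts, 7.01 times its median and the highest of 48. Its ratio was also 2.79 in starch/palmitate replicate 1 and 2.01 in Western diet replicate 6, both of the first set. Cxcl15, a chemokine of lung epithelium, had 58.7. The interferon-induced chemokines Cxcl9 and Cxcl10 had 2120.3 and 210.4, the lymphocyte receptors Pdcd1 and Tigit 92.1 and 53.6, and the steroid-induced Fkbp5 1129. Cd24a, at 3.8 times its median, stayed below the first set.

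**Figure D3:**
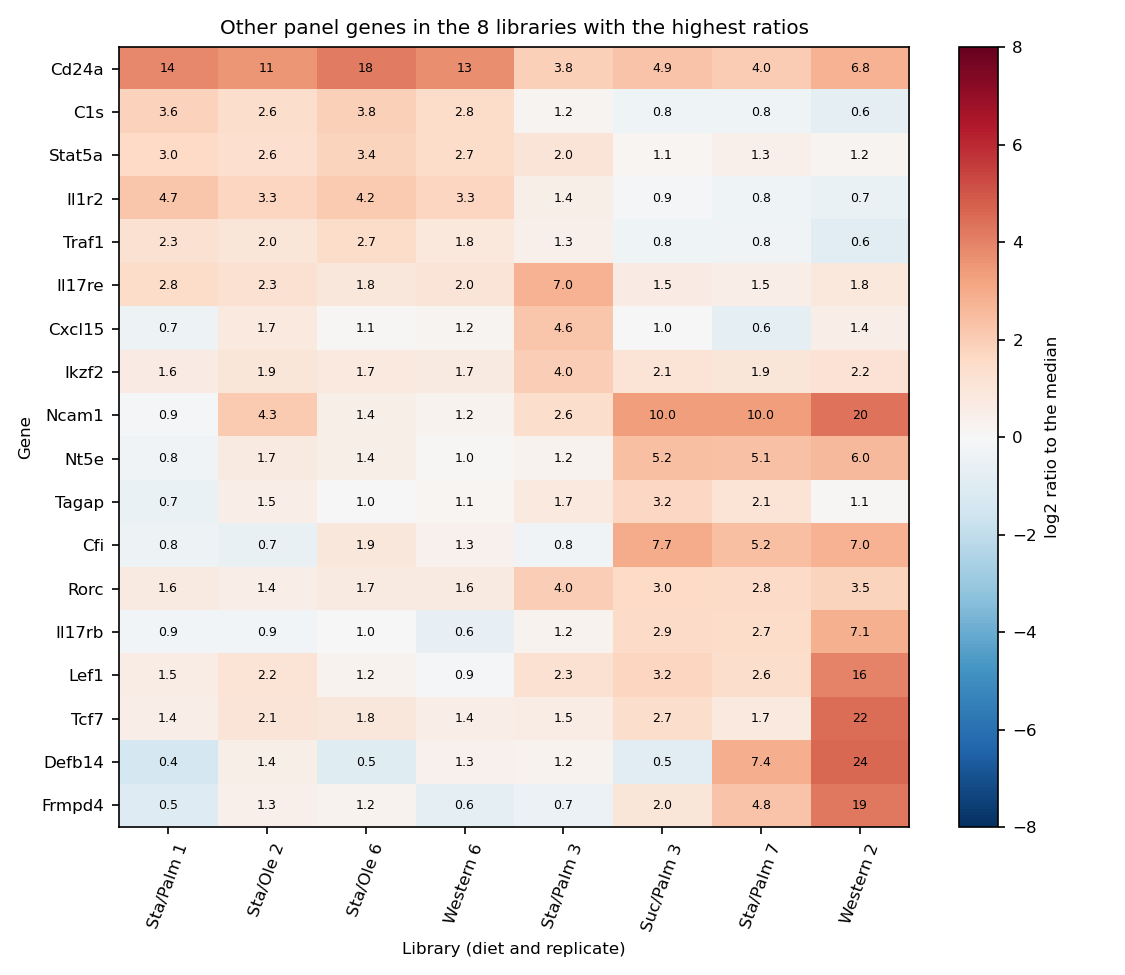
Ratio of other panel genes to their 48-library medians in the 8 libraries where a member exceeded 50 times its median; colours are log2 ratios and the numbers are linear ratios. C1s, Stat5a and Il1r2 mark the first 4 columns. Il17re and Cxcl15 are highest in starch/palmitate replicate 3, and Il17re is also raised in starch/palmitate replicate 1 and Western diet replicate 6. Ncam1, Nt5e and Cfi are raised in the last 3 columns, and Cfi is not particular to them. Cd24a is highest in the first 4 columns and raised in all 8.

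The second set was sucrose/palmitate replicate 3 and starch/palmitate replicate 7, and its mark was Ptgs2. Ptgs2 had scaled counts of 9674 and 5920, 228 and 139 times its median, against at most 2575 in any other library. Gata3 was high in both, at 1063 and 829.8, as were C4bp, at 95.9 and 315, and Defb1, at 62.5 and 193. Ceacam1 was not high, at 134 and 106, and Pigr had 36.7 and 21.2. Clu was 4686 and 4788, 2.46 and 2.51 times its median. The pairing of Gata3 with Ceacam1 that marked the first set was thus absent in both libraries.

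In the 2 libraries 10 tested non-member genes were at or above 2 times their median in both, of 16 and 19 such genes, and 1 of the 10 was so in no other library. Each shared more of these genes with Western diet replicate 2, 11 and 14 of its 28, although Ptgs2 was not high there. Ncam1, a neural cell adhesion molecule, had 523 and 524, 9.96 and 9.97 times its median. Nt5e, the ecto-enzyme that makes adenosine, had 837 and 809.7, and the complement protease Cfi had 238 and 159.8. Cfi was not particular to the 2 libraries, since 8 libraries elsewhere were at or above 159.8, the highest at 289. Tagap, a GTPase activator of lymphocytes, had 376 and 249.8 against at most 201 elsewhere. The genes Ncam1, Nt5e and Cfi were 19.9, 6.0 and 6.98 times their medians in Western diet replicate 2, where Ptgs2 was 55.4.

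Ptgs2 also had a pattern of its own in the starch/oleate group. Its scaled counts were 1009.9, 2575, 1421, 1319.5 and 1806 in replicates 1 to 5 and 112, 21.1, 33.8 and 32.1 in replicates 6 to 9. The split into replicates 1 to 5 and 6 to 9 was drawn from these values, so its lack of overlap was fixed in advance. On the Western diet replicate 1 had 1686, and the other 6 libraries had 26.3 to 55.4. Chow replicate 4 had 330.2 and the other chow libraries 33.1 to 56.7.

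In the 5 starch/oleate libraries with high Ptgs2, Gata3 was 152, 1587, 174, 437 and 311, against 47.7, 57.3 and 38.3 in replicates 7 to 9. Replicate 6, of the first set, had Gata3 at 2071 with Ptgs2 at 112. In Western diet replicate 1 Gata3 was 206. Defb1 in replicates 1, 3 and 5 was 14.9, 18.96 and 38.3, so high Ptgs2 occurred without high Defb1. The ratio of the positive control probes A and B, a technical value of each library, was 3.15 to 3.28 in replicates 1 to 5 and 3.11 to 3.16 in replicates 6 to 9. Of 13 listed mesothelial genes only Cfb and Il18 were on the panel, and Il18 is also among the epithelial genes listed. Their sum was 1493 to 1872 scaled counts in replicates 1 to 5 and 2055 to 2602 in replicates 6 to 9. These 2 genes are not particular to mesothelium, and how many other panel genes differ across this split was not counted. The part of the control ratio and of this sum in the Ptgs2 values was not tested.

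Western diet replicate 2 had the largest count of any member. Clu reached 173670 scaled counts, 91.2 times its median, and gave 31.9% of the endogenous counts of that library (95% Wilson interval 31.75% to 32.05%). C4bp reached 15239, 1018 times its median and 2.80% of the counts (2.75% to 2.85%). Defb1 was 1255 and Gata3 681, both high, whereas Ceacam1 at 82.5 was the lowest of 48 libraries. In the other 6 Western diet libraries Clu ran from 1038 to 3378 and C4bp from 4.41 to 201.

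Western diet replicate 2 also had 18 tested genes high, the most of any library, against a median of 2. Its leading companions were Defb14, another beta-defensin, with 222 scaled counts or 24.1 times its median, and the transcription factors Tcf7 and Lef1, with 1140.3 and 297. Ncam1 had 1045, Frmpd4 134 and Il17rb 355. The adipocyte genes summed to 23954, the lowest of 48 libraries, and the 8 macrophage genes to 4733, against a median of 18223 on this diet. The part of the low adipocyte and macrophage sums in the high ratios was not tested.

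Sucrose/palmitate replicate 4 was the only other library with Clu high, at 8319.7 or 4.37 times the median. It was also the only library with Muc1 high, at 75.5, against 4.77 to 19.2 in the others. C4bp was high there too, at 150.2, and Defb1, Gata3 and Ptgs2 were not. Its leading companions were Stat4, a lymphocyte and germ cell transcription factor, with 1191 scaled counts or 20.4 times its median, and Defb14, with 168. Cd46, a complement regulator of the sperm head in mice, had 131, and C8g 132. Lef1, Il17rb and Tcf7, named above for Western diet replicate 2, were raised here too, at 7.41, 3.00 and 2.86 times their medians. The library had 13 tested non-member genes at or above 2 times their median. It shared 8 of them with Western diet replicate 2 and 8 with starch/palmitate replicate 7.

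C4bp, the complement inhibitor, was high in 10 libraries of 5 groups, 4 of them with Defb1 high. Its next highest values after Western diet replicate 2 were 480.2 in sucrose/palmitate replicate 2 and 315 in starch/palmitate replicate 7. On chow it was 129, 66.5 and 73.3 in replicates 1 to 3 and 5.20 to 22.7 in the other 5. C4bp and Ceacam1 were high together in no library. C4bp and Pigr, which RefSeq places near each other on chromosome 1 with only a few genes between, were high together in 2 libraries, chow replicates 1 and 2, of 10 and 8.

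Some libraries had members high at lower levels. Chow replicate 4 had Defb1 at 221, Gata3 at 197 and Ptgs2 at 330.2, and Ceacam1 at 303, 1.9 times its median. The other chow libraries had 7.97 to 31.4 for Defb1 and 22.9 to 43.6 for Gata3. That library had Cfd, the adipocyte protein adipsin, at 222160 scaled counts or 19.7 times its median, the highest adipocyte sum of 48, 303890, and the lowest macrophage sum, 3981, and their part in its values was not tested. Starch/oleate replicate 4 had Defb1 at 265.5 and Gata3 at 437, and starch/palmitate replicate 5 had Pigr at 273 with Defb1 at 15.4.

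Pair by pair, Defb1 and Gata3 were high together most often, in 10 libraries of 12 and 12. All 5 libraries with Ceacam1 high also had Defb1, Gata3 and Pigr high. Gata3 and Ptgs2 were high together in 7 libraries, 7 of the 12 with Gata3 high and 7 of the 9 with Ptgs2 high. Defb1 and Ptgs2 shared 5 libraries, C4bp and Ptgs2 3, and C4bp and Defb1 4. Clu and C4bp shared both libraries in which Clu was high.

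Over all 48 libraries, correlations of log2(scaled count + 1) gave the same neighbours for some members, among them Defb1 with Gata3 and Clu with C4bp. The 5 nearest genes of Pigr held none of Defb1, Ceacam1 and Gata3, and for Ptgs2 Tagap and Ncam1 came before Gata3. These correlations describe libraries that share extreme values, and they carry no p. For Defb1 the nearest gene was Gata3 (Pearson r 0.855, Spearman rho 0.659), and r was 0.858 without the 2 libraries farthest from the median of Defb1. Cd24a followed Defb1 with r 0.804 (rho 0.632, and 0.811 without 2 libraries) and Gata3 with r 0.822 (rho 0.626, and 0.766). For Ceacam1 the rank correlation was low, rho 0.383 with Defb1 at r 0.796 and 0.205 with Stat5a at r 0.768. Outside the 5 high libraries Ceacam1 ran from 82.5 to 322 scaled counts.

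**Figure D4:**
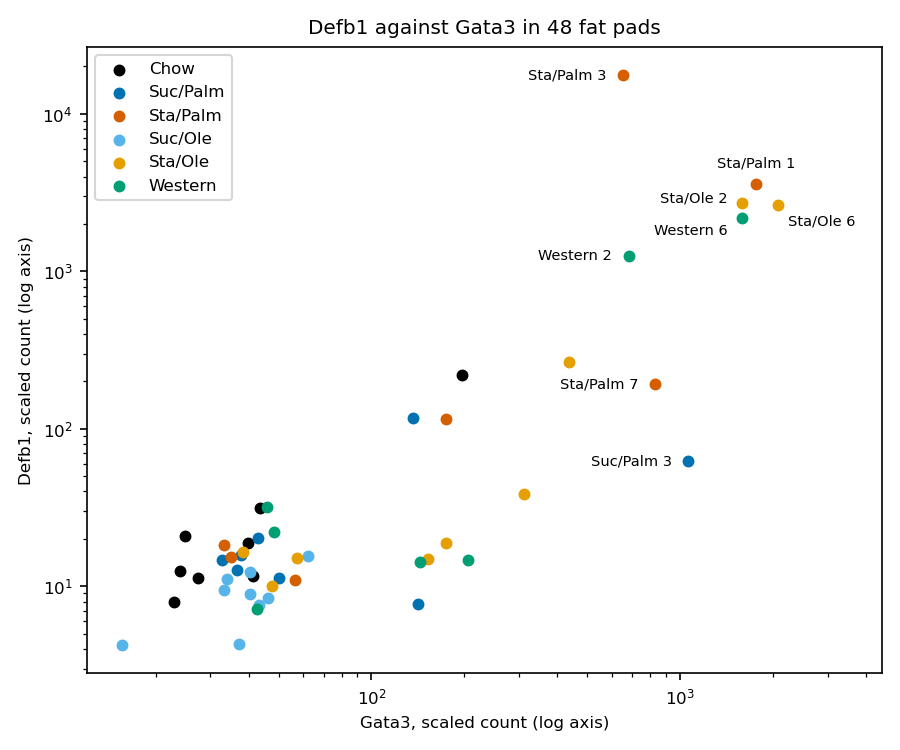
Scaled counts of Defb1 against Gata3 in the 48 fat pads, on log axes, coloured by diet; the 8 libraries in which a member exceeded 50 times its median are named. The first set lies together at the upper right, starch/palmitate replicate 3 lies above it at lower Gata3, and sucrose/palmitate replicate 3 and starch/palmitate replicate 7 lie below it.

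Mme and Pigr had Il17re as nearest gene. For Mme r was 0.843 (rho 0.827, and 0.775 without 2 libraries), and with Stat5a it was 0.803 (rho 0.851, and 0.854). For Pigr and Il17re r was 0.780 (rho 0.743, and 0.705). The nearest gene of Clu was C4bp, with r 0.830 (rho 0.658), and 0.638 without the 2 libraries farthest from the median of Clu. For C4bp and Ncam1 r was 0.745 (rho 0.681, and 0.616 without 2). H2-Q10 was nearest to Pigr with r 0.555, but rho was 0.036 and r 0.045 without starch/palmitate replicate 3 and chow replicate 1, so that relation rested on those libraries. For Ptgs2 and Tagap r was 0.622 (rho 0.445) and fell to 0.390 without 2 libraries, and for Muc1 and Rae1 it was 0.639 (rho 0.503) and fell to 0.462.

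Marker lists of other cells were summed in each library. In bulk tissue, fewer cells of a type and less RNA per cell cannot be told apart. Of 48 epithelial genes listed besides the members, 16 were on the panel. Their sum was 9863 to 12802 in the 4 libraries of the first set, 6098 to 6859 in the other 4 libraries beyond 50 times a median, and between 4182 and 5265 on chow. In the first set Cd24a alone made up 5446 to 8538 of that sum. Of 27 listed genes of the epididymis and male tract, 4 were on the panel and 2 of them, Defb1 and Clu, are members. The other 2, Cd46 and Cd59b, summed to 255 in sucrose/palmitate replicate 4, the highest of 48, and to 37.4 to 81.5 in the 8 libraries, beside 24.2 to 83.1 in all libraries other than that one.

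Adipocyte and macrophage sums moved with some of the 8 libraries. The adipocyte sum was the lowest of its diet in sucrose/palmitate replicate 3 (63017), starch/palmitate replicate 3 (59216), starch/oleate replicate 6 (53011) and Western diet replicate 2 (23954). The macrophage sum was the lowest of its diet in starch/palmitate replicate 7 (7222), starch/oleate replicate 6 (13703) and Western diet replicate 2 (4733). The 2 genes of the mesothelium list on the panel, Cfb and Il18, are not particular to mesothelium. They summed to 1499 to 2602 in the 8 libraries, against 1493 to 4748 over all libraries. The 4 endothelial genes summed to 1976 to 4122 in the 8 libraries, against 1525 to 5237 over all. The T cell list summed to 815 to 1760.2 in the 8 libraries, against 407 to 2298 over all. The lymph node and B cell list summed to 325 to 1588 in them, against 290.02 to 6400.3 over all, the neutrophil list to 294 to 2304 against 265 to 5239.5, and the mast cell list to 246 to 499 against 221 to 758. The part of these cells in the members' values was not tested.

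Some of the members' diet means rested on these libraries. Differences from chow came from the edgeR quasi-likelihood fit of all 48 libraries and are given as log2 of diet over chow ± SE, with no p, because the same values chose the genes. Of the 50 differences, 20 moved by more than the spread between replicates (1 SD) without the 8 libraries beyond 50 times a median, and 19 without the 12 libraries with at least 3 members high, which also leaves out chow replicate 4. On starch/palmitate, Defb1 ran from 10.9 to 17525 with a median of 115, against 7.97 to 221 with a median of 15.7 on chow. Its difference was 6.21 ± 1.51 with all libraries and -0.03 ± 0.84 without the 8 libraries. Pigr gave 4.96 ± 1.05 and then 1.07 ± 0.67, Ceacam1 2.20 ± 0.65 and 0.02 ± 0.18, and H2-Q10 2.54 ± 0.57 and 0.28 ± 0.39. Mme gave 1.46 ± 0.50 and -0.28 ± 0.24, and Gata3 3.27 ± 0.94 and 0.53 ± 0.60. Ptgs2 gave 3.49 ± 1.34 and -1.11 ± 1.02, and C4bp 0.38 ± 1.13 and -1.55 ± 1.00. The 8 libraries were left out because members were high in them, so a fall of these differences was fixed in advance. Without the 12 libraries Defb1 gave 1.29 ± 0.56, Gata3 1.23 ± 0.50 and Pigr 0.98 ± 0.72. Ceacam1, H2-Q10 and Mme then gave 0.14 ± 0.15, 0.20 ± 0.40 and -0.25 ± 0.24.

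On starch/oleate Ptgs2 and Gata3 had the largest differences above chow without the 8 libraries and without the 12. Both settings kept libraries with Ptgs2 high, and the values are a description. Ptgs2 ran from 21.1 to 2575 with a median of 1009.9, against 33.1 to 330.2 with a median of 43.2 on chow. Its difference was 3.57 ± 1.31 with all libraries and 3.37 ± 0.82 without the 8. Gata3 ran from 38.3 to 2071 with a median of 174, against 22.9 to 197 on chow, and gave 3.37 ± 0.91 and 1.74 ± 0.52. Without the 12 libraries Ptgs2 gave 3.56 ± 0.87 and Gata3 1.55 ± 0.47. Defb1 gave 3.95 ± 1.35 with all libraries, 0.39 ± 0.70 without the 8 and -0.12 ± 0.58 without the 12, and Ceacam1 1.69 ± 0.62 and then 0.18 ± 0.15 without the 8.

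On starch/oleate Mme, Pigr and H2-Q10 had negative differences without the 8 libraries. Mme, the peptidase, ran from 276 to 3802 with a median of 649, against 1135 to 1715 on chow, so that 7 of the 9 starch/oleate libraries lay below the chow range. Its difference was -0.41 ± 0.46 with all libraries and -1.50 ± 0.21 without the 8. Pigr gave 0.09 ± 0.91 and -1.68 ± 0.66. Without replicates 2 and 6 its starch/oleate values were 1.99 to 19.7, within the range of the negative controls. On chow it was 151 and 76.9 in replicates 1 and 2 and 3.12 to 23.8 in the others. H2-Q10 gave -0.996 ± 0.53 and -1.09 ± 0.34, with 62.6 to 249 against 69.4 to 761 on chow, ranges that overlapped.

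On the Western diet C4bp gave 5.71 ± 1.28 with all libraries and 0.30 ± 0.83 without the 8, and Clu 3.38 ± 0.73 and -0.48 ± 0.34. Defb1 gave 3.61 ± 1.36 with all libraries, -1.21 ± 0.85 without the 8 and 0.10 ± 0.58 without the 12, so its sign depended both on the 2 Western diet libraries and on chow replicate 4. Ptgs2 gave 1.82 ± 1.28 and 2.23 ± 0.84, with 1 of the 7 libraries, replicate 1, above the chow range. Mme gave -0.23 ± 0.49 and -0.88 ± 0.23. On sucrose/palmitate Ptgs2 gave 4.00 ± 1.35 with all libraries and -0.76 ± 0.83 without the 8, and Muc1 1.01 ± 0.35 and 1.05 ± 0.38. The Muc1 difference was 0.36 ± 0.29 without the 12 libraries, among them replicate 4 with its 75.5. On sucrose/oleate, where no library was left out in either case, Defb1 gave -2.15 ± 1.39 with all libraries, -2.15 ± 0.75 without the 8 and -0.83 ± 0.52 without the 12, which removes chow replicate 4 from the comparison. Mme gave -0.60 ± 0.46, -0.60 ± 0.19 and -0.58 ± 0.19.

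**Figure D5:**
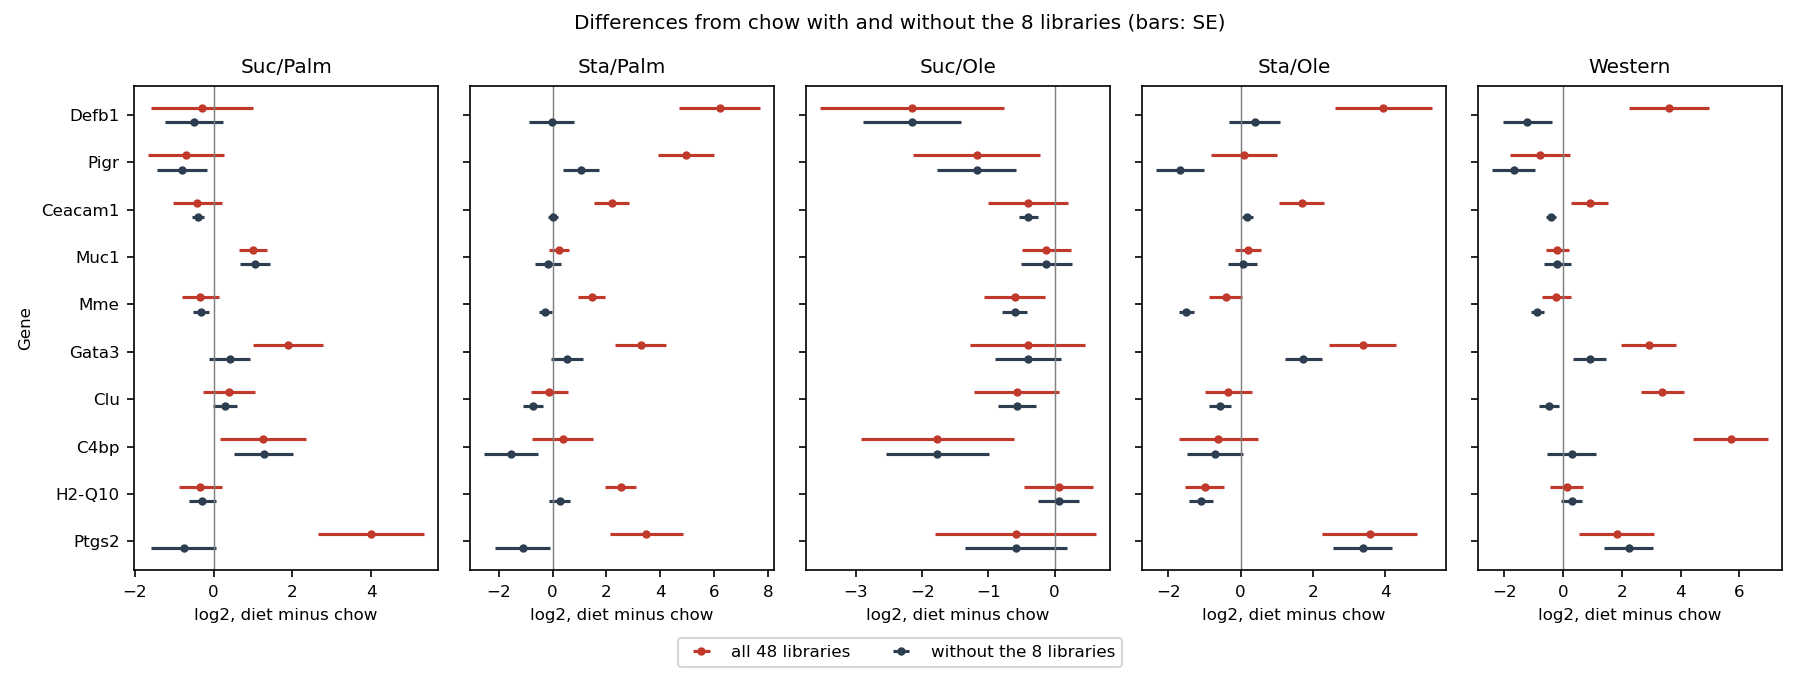
Log2 difference from chow of the 10 genes on each fat-rich diet, with all 48 libraries (red) and without the 8 libraries in which a member exceeded 50 times its median (dark); bars are SE, and each panel has its own axis. On starch/palmitate the dark points of Defb1 and Ceacam1 lie near 0, and those of Pigr, Ptgs2 and C4bp at 1.07, -1.11 and -1.55. Ptgs2 on starch/oleate stays near 3.4.

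The members were chosen by their extreme counts in single libraries. The list of the 16 other epithelial genes on the panel was drawn up with earlier results of these data known. Its tests were therefore not independent of these data. Which cells carried these genes was not tested, so the name of the list does not assign them to epithelium. The 16 genes were tested in the same fit over 491 genes, with Benjamini-Hochberg adjusted p below 0.05. All genes against chow gave the background. Of all genes tested, 14.9% were higher and 2.24% lower on sucrose/palmitate, 20.6% and 4.68% on starch/palmitate, 28.9% and 7.74% on sucrose/oleate, 48.3% and 12% on starch/oleate, and 32.8% and 7.94% on the Western diet. Of the 16 epithelial genes, 2 passed on sucrose/palmitate, both higher. On starch/palmitate 1 was higher and 2 lower, on sucrose/oleate 3 and 4, on starch/oleate 6 and 3, and on the Western diet 5 and 3. The median difference of the list was 0.33, 0.43, -0.16, 0.09 and 0.10 in that order of diets, beside 0.20, 0.24, 0.19, 0.34 and 0.25 over all genes tested. On starch/oleate 6 of the 8 macrophage genes were also higher and 1 lower. Of the 4 endothelial genes, 3 were lower there and 0 higher. The part of these cells in the listed genes was not tested.

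Of the genes that passed, Cd24a, Defb14 and Il17re were also among the companions of the members described above. Tnfrsf11a, the receptor of the osteoclast factor RANKL, was higher on all 5 diets, by 0.73 ± 0.19, 0.65 ± 0.20, 1.18 ± 0.19, 1.41 ± 0.19 and 1.10 ± 0.20 on the log2 scale. Itga6, the integrin of the epithelial basement membrane, and Notch1 were lower on every fat-rich diet except sucrose/palmitate, with differences of -1.26 ± 0.14 and -0.80 ± 0.14 on starch/oleate. The call of Itga6 on starch/palmitate (edgeR adjusted p = 0.0469) was lost in 14 of 23 alternatives, with adjusted p between 0.016 and 0.137 over them, and that of Notch1 on the Western diet in 8 of 23. Il1rl2, a receptor of interleukin 36, was higher on 4 diets, Il1rn, the interleukin 1 receptor antagonist, on 3 and the alarmin Il33 on 2, while Tslp, another epithelial cytokine, was lower on 3. Of these calls that of Il1rn on the Western diet was lost in 14 of 23 alternatives, that of Il1rl2 on sucrose/palmitate in 7 of 24, that of Tslp on starch/oleate in 4 of 25 and that of Il33 on starch/oleate in 2 of 25. Nox1, an epithelial oxidase, passed on starch/oleate, but its mean scaled counts of 14.3 there and 9.50 on chow lay within the range of the negative controls, and the call was lost in 6 of 24 alternatives, TMM scaling and DESeq2 among them. Il17re was lower on sucrose/oleate, with a difference of -0.90 ± 0.36 (edgeR adjusted p = 0.043), and no longer passed in 12 of 25 alternatives, the replicate block among them, with adjusted p between 0.000965 and 0.0968 over its alternatives.

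Cd24a and Defb14 passed through libraries described above. Cd24a was 421 to 8538 on starch/oleate, with a median of 647, against 230.2 to 951 with a median of 378 on chow. The difference was 1.99 ± 0.75 (edgeR adjusted p = 0.0206), and it no longer passed in 6 of 25 alternatives, among them leaving out starch/oleate replicate 2, replicate 6 or the 8 libraries, with adjusted p between 0.0154 and 0.876 over its alternatives. Defb14 was higher on the Western diet by 1.92 ± 0.74 (edgeR adjusted p = 0.0354), with 6.44 to 222 against 5.10 to 15.7 on chow. It no longer passed in 9 of 22 alternatives, among them leaving out Western diet replicate 2, with adjusted p between 0.0222 and 0.962 over its alternatives.

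C9, the pore-forming complement component and a liver and plasma gene listed beside C4bp and H2-Q10, was lower on all 5 fat-rich diets. Its mean was 38.1 ± 36.7 scaled counts on chow (SD, n = 8) and 12.8, 10.5, 10.5, 8.62 and 5.43 on the diets in the same order, which lie within the range of the negative controls, so the size of the difference was not measured. Of 11 genes of prostaglandin signalling and acute inflammation tested beside Ptgs2, 7 were higher and 2 lower on starch/oleate, where 48.3% of all genes tested were higher and 12% lower. Of the 7, Ccl2 was lost in 15 of 25 alternatives and Il1b in 12 of 25. The chemokines Ccl3 and Ccl4 were higher there by 1.49 ± 0.28 and 1.16 ± 0.24, and Ptger4, a prostaglandin E2 receptor, by 0.34 ± 0.14 (edgeR adjusted p = 0.0367). Ptger4 no longer passed in 11 of 25 alternatives, among them TMM scaling, DESeq2 and leaving out starch/oleate replicate 1, 2 or 3, with adjusted p between 0.00076 and 0.987 over its alternatives. On the other 4 diets at most 2 of the 11 passed.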

How the data were processed

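RNA of 48 fat pads was counted on a NanoString panel, which tags each transcript with a barcoded probe and counts barcodes. The authors deposited 1 table of raw counts, whole numbers per probe and sample, per the values of the deposited table. The counting tool and version are not given in the sources used here. Counts of 1 are the lowest and occur in 151 values.

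Each library was scaled by the geometric mean of its 14 reference genes. The 491 of 547 genes whose mean count reached 10, which included all 10 members, were fitted over the 48 libraries with a mean per diet by the quasi-likelihood test of edgeR 4.0.16 under R 4.3.3, two-sided, with Benjamini-Hochberg adjustment over the genes tested and a threshold of 0.05. The fit was tested on simulated data. The members and gene lists were chosen with earlier results of these data known. Genes named besides the members are from their 5 nearest genes, the 10 leading other genes of each library with at least 3 members high, and list genes that passed; the text names a subset picked after their values were seen. No 2 libraries were copies (lowest chi-square per degree of freedom 4.61 over 1128 pairs). Part of the list of liver and plasma genes is not reported here. Promoters are from RefSeq, and 549 of 561 probes matched RefSeq names. Alternatives were TMM scaling, other filters, a replicate block, DESeq2 1.42.0, only the groups compared, and leaving out libraries.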

Additional observations from a re-analysis of the deposited data

Results flagged for a closer look

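Among the 60 sets of 1 gene in 1 diet group, 14 had a highest or lowest library whose gap to the next, on the log2 scale, was large for the range of its group by Dixon's criterion, which chance alone meets in about 1 of 20 sets. The genes were chosen for such values, so the number is a description. On chow, replicate 4 was the highest for Defb1 (221 scaled counts, next 31.4), Ceacam1 (303, next 191), Gata3 (197, next 43.6) and Ptgs2 (330.2, next 56.7). Chow replicate 8 was the lowest for Clu (1647.5, next 2292). On sucrose/palmitate, replicate 3 was the highest for Gata3 (1063, next 142) and Ptgs2 (9674, next 82.5). On starch/palmitate, replicate 7 was the highest for C4bp (315, next 28.3) and Ptgs2 (5920, next 49.6), and replicate 3 for H2-Q10 (8669, next 389.6). Sucrose/oleate replicate 6 was the lowest for Gata3 (15.5, next 33.2). On the Western diet, replicate 6 was the highest for Ceacam1 (1696, next 151), replicate 2 for Clu (173670, next 3378) and replicate 1 for Ptgs2 (1686, next 55.4).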

How the results depend on the processing

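The 12 libraries with at least 3 members high were the same 12 with TMM scaling and after subtraction of the negative controls, 11 with total counts, 10 (9 shared) against the median of the own diet, 8 at 8 times and 16 at 2 times the median. Leaving out 1 library gave 11 to 12. The library left out was itself not counted, so a fall to 11 was built in when it was 1 of the 12. Of the 50 member differences from chow, 20 moved by more than the spread between replicates (1 SD) without the 8 libraries, a setting chosen after seeing the data, and none by that much with TMM. Genes called on sucrose/palmitate numbered 84, 20 when only the 2 groups were fitted, and 23 to 112 with 1 library left out (lowest without sucrose/palmitate replicate 1, highest without chow replicate 7). With the replicate block there were 55. The number paired no samples: deviations from the diet means correlated by -0.0156 on average in 112 pairs that shared a number across diets and by 0.00673 in 846 that did not. Of the other epithelial genes, 2 were called on sucrose/palmitate, 1 with TMM, 1 with DESeq2, 0 with only the 2 groups in edgeR (5 at an unadjusted p under 0.05), 4 without the 8 libraries and 0 to 4 with 1 library left out (0 without sucrose/palmitate replicate 1, with 3 at an unadjusted p under 0.05). On starch/palmitate 3 were called, 5 without the 8 libraries and 2 to 6 with 1 library left out, and on the Western diet 8, and 5 with only the 2 groups. Of 29 calls in that list, 18 held under every alternative run. The causes of these shifts were not tested. The usual levels of Pigr, Defb1, C4bp and Muc1 lie near the negative controls, which limits their ratios.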
